A study of Drosophila melanogaster with 6 samples.

Results

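Heat shock genes were followed in *Drosophila melanogaster* heads through the probe sets (groups of short probes that read one transcript) whose single listed gene was one of 10 named genes. Probe sets for 7 of the 10 genes were used, 1 per gene, out of 10956 probe sets on the table and 8517 genes with a probe set of their own. They are the co-chaperone gene *stv* (*starvin*), the small heat shock protein genes *Hsp26* and *Hsp27*, the chaperone genes *Hsp68* and *Hsc70-4*, the J-domain gene *DnaJ-1* and the heat shock factor gene *Hsf*. *Hsp83* and *Hsp23* were not analysed here, and *Hsp22* shares its probe set with a neighbouring gene and so has no value of its own.

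The 6 samples were total RNA of 30 heads each from flies entrained to light and dark, 1 array per sample. They came from control flies (cyo in the series' design text), from flies labelled cbt over-expression and from flies labelled cbt RNAi. Each genotype had 1 array from ZT3 and 1 from ZT15, where ZT numbers the hours after the lights come on, so ZT3 is a daytime and ZT15 a night-time point. *cbt* (*cabut*) encodes a transcription factor that responds to dietary sugar. The driver, the transgenes, the age and the sex of the flies are not given in the sources used here.

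Heat shock proteins are chaperones that keep other proteins folded, and many of their genes are switched on when Hsf, the heat shock transcription factor, binds to their promoters after heat or other protein damage. Small heat shock proteins hold unfolding proteins without using ATP, whereas Hsp70-class chaperones refold them in ATP-driven cycles that J-domain proteins start and exchange factors end. Starvin is an exchange factor with a BAG domain, the fly counterpart of mammalian BAG3, and is known for the upkeep of muscle, where it works with Hsc70-4.

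The arrays had medians of 7.35 to 7.42 log2 units. The *cbt* probe set read 10.21 and 10.72 in control heads at ZT3 and ZT15, 8.98 and 9.90 in over-expression-labelled and 10.99 and 11.05 in RNAi-labelled heads. That order is the opposite of the labels, so genotypes are named by their labels and no direction is tied to a *cbt* level. Neuron and photoreceptor markers were present on every array, with mean signals of 8.91 to 9.69 and 10.88 to 11.74 over 8 and 6 genes. The over-expression-labelled ZT3 array stood apart, where 56 genes exceeded each other array by 4-fold or more, against 0 to 2 elsewhere. All 9 digestive tract markers with a value were at their highest on it. Of 4 genes listed as male markers only *sxe2* and *dsx* had a value. The mean of these 2 genes was 7.21 and 7.85 in over-expression-labelled heads at ZT3 and ZT15, against 8.65 to 8.99 on the other arrays. That of 3 female markers was 14.16 to 14.27 on all arrays. The part of sex in the differences between genotypes was not tested.

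*stv* was lower in RNAi-labelled heads than in both other genotypes, at both times. Its signal was 9.63 at ZT3 and 9.47 at ZT15 in control heads, 9.54 and 9.29 in over-expression-labelled heads, and 8.76 and 8.51 in RNAi-labelled heads. Both RNAi-labelled arrays lay below all 4 other arrays, and the control and over-expression-labelled arrays overlapped. Against control *stv* fell by 0.92 on the log2 scale in RNAi-labelled heads, 1.89-fold, with differences of -0.87 at ZT3 and -0.97 at ZT15. That fall had a SE of 0.08 (2 arrays per genotype, taken at different times and not repeats, limma adjusted p = 0.00803). Against RNAi-labelled heads the over-expression-labelled heads were 0.78 ± 0.08 (SE) higher (adjusted p = 0.00452), and by time the difference was 0.78 (ZT3) and 0.79 (ZT15). Between the over-expression-labelled and control heads the difference was -0.14, with a 95% interval of -0.35 to 0.07 (adjusted p = 0.325). In whole heads, fewer cells of a type and less RNA per cell cannot be told apart. Cell type markers also moved between RNAi-labelled and control heads. Of 9 hemocyte markers 3 fell by limma, against 6.25% of all genes, and the list's median difference was -0.50. For 8 of the 9 both RNAi-labelled arrays lay below both control arrays, against 2415 of all 8517 genes. Of 6 photoreceptor markers 1 rose, against 3.16% of all genes, with a median of 0.34. For 4 of the 6 both RNAi-labelled arrays lay above both control arrays, against 2568 of all genes. The 9 digestive tract markers had a median of -0.45, with 0 called by limma. The part of these markers in the *stv* difference was not tested.

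The *stv* difference between RNAi-labelled and control heads was close to the same in every fit, but its call was not. With 1 array left out the difference ran from -0.96 to -0.87. It did not pass when the control array of ZT3 was left out (-0.96, adjusted p = 0.0959), nor that of ZT15 (-0.87, 0.131), nor the RNAi-labelled array of ZT3 (-0.95, 0.0572). In those fits 3, 0 and 87 genes of all genes passed, and 1 genotype has a lone array that is assumed to vary like the others. The difference between over-expression-labelled and RNAi-labelled heads passed whichever of the 6 arrays was dropped, with adjusted p from 0.00466 to 0.0349.

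**Figure D1:**
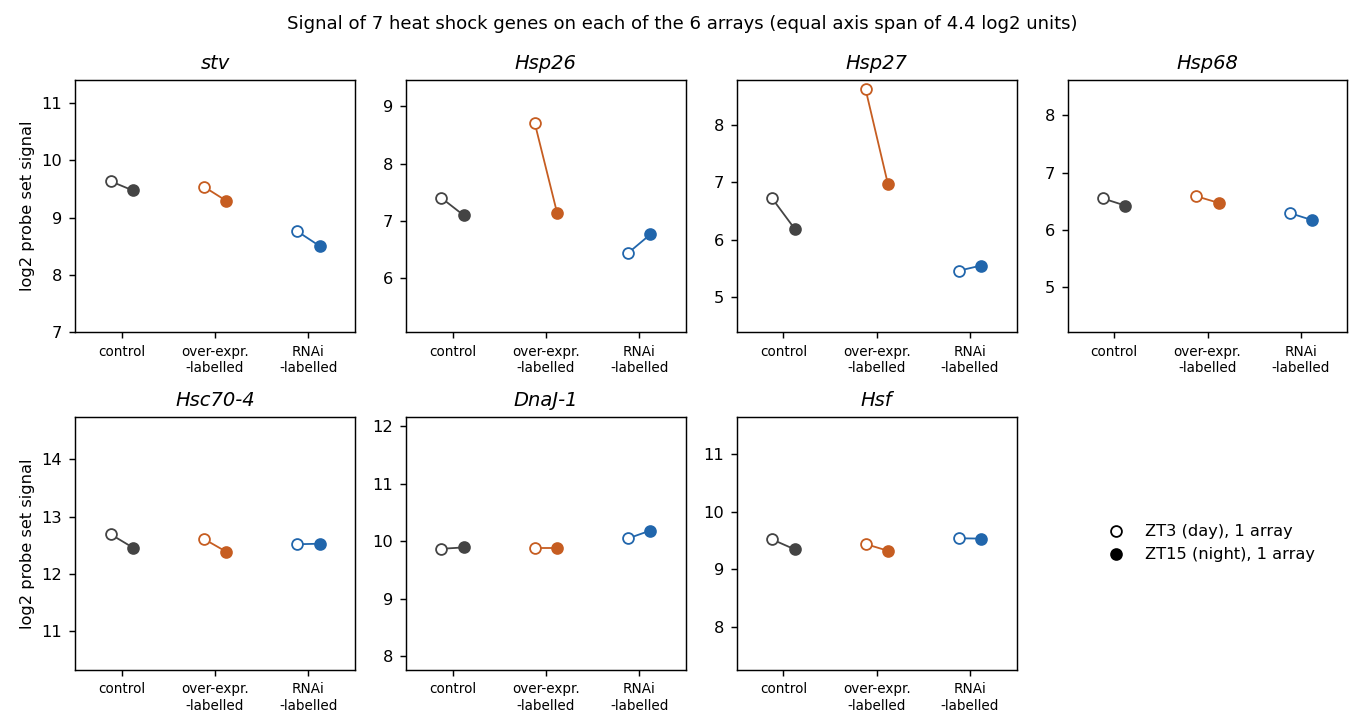
Each panel shows the log2 signal of 1 gene on the 6 arrays, with open circles for ZT3 and filled circles for ZT15, 1 array each, and the same span of the vertical axis in every panel. *stv* sits at 8.76 and 8.51 in the RNAi-labelled heads, below the other 4 arrays, and *Hsp26* and *Hsp27* reach their highest values, 8.71 and 8.63, on the over-expression-labelled ZT3 array.

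The small heat shock protein genes *Hsp27* and *Hsp26* had the widest spread of the 7 genes. *Hsp27* read 6.72 and 6.19 in control heads at ZT3 and ZT15, 8.63 and 6.97 in over-expression-labelled and 5.46 and 5.55 in RNAi-labelled heads. The 3 genotypes did not overlap, in the order over-expression-labelled, control, RNAi-labelled. *Hsp27* was 4.90-fold higher in over-expression-labelled than in RNAi-labelled heads, a log2 difference of 2.29 ± 0.40 (SE, 2 arrays per genotype, limma adjusted p = 0.0155), from 3.17 in the ZT3 pair and 1.42 in the ZT15 pair. Against control the over-expression-labelled heads differed by 1.34 (95% interval 0.34 to 2.35, adjusted p = 0.0999), by 1.91 in the ZT3 pair and 0.78 in the ZT15 pair. The RNAi-labelled heads differed from control by -0.95 (-1.95 to 0.05, adjusted p = 0.173), by -1.26 in the ZT3 pair and -0.64 in the ZT15 pair. Neither difference from control passed.

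*Hsp26* read 7.40 and 7.10 in control heads at ZT3 and ZT15, 8.71 and 7.14 in over-expression-labelled and 6.44 and 6.77 in RNAi-labelled heads. The RNAi-labelled arrays lay below all others, whereas the over-expression-labelled and control arrays overlapped. The over-expression-labelled heads differed from control by 1.31 at ZT3 and by 0.05 at ZT15, and from RNAi-labelled heads by 2.27 and 0.38. None of its differences passed: 0.68 for over-expression-labelled minus control (95% interval -0.41 to 1.76, adjusted p = 0.345), -0.65 for RNAi-labelled minus control (-1.73 to 0.44, 0.356) and 1.32 between the altered genotypes (0.24 to 2.41, 0.0742).

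Both small heat shock genes were at their highest on the over-expression-labelled ZT3 array, the one that stood apart. On it the mean of the 9 digestive tract markers was 8.29, against 4.51 to 5.28 on the other 5 arrays, and the part of this array in the small heat shock signal was not tested beyond leaving it out. The mean of the 9 hemocyte markers moved in the same order as *Hsp27*, with 9.43 and 9.12 in over-expression-labelled, 9.11 and 8.80 in control and 8.49 and 8.47 in RNAi-labelled heads, and its part was not tested. With the over-expression-labelled ZT3 array left out, *Hsp27* still differed between over-expression-labelled and RNAi-labelled heads by 1.57 (adjusted p = 0.00455), and its difference from control was 0.63 (0.201). In the same fit *Hsp26* differed from control by -0.11, the opposite sign (0.832), and from RNAi-labelled heads by 0.53 (0.156). Without the over-expression-labelled ZT15 array both differences from control passed, at 1.47 for *Hsp26* (0.00537) and 2.06 for *Hsp27* (0.00137), and *Hsp26* differed from RNAi-labelled heads by 2.11 (0.000645). The *Hsp27* call between the altered genotypes was lost without the RNAi-labelled ZT3 array (1.70, 0.0817), and *Hsp26* passed there without the RNAi-labelled ZT15 array (1.96, 0.049). Without that ZT3 array the differences from control were -0.36 for *Hsp27* and -0.02 for *Hsp26*, and without the ZT15 array they were -1.54 and -1.28. With only control and RNAi-labelled arrays in the fit, *Hsp27* (limma adjusted p = 0.0115) and *Hsp26* (0.0358) were lower in RNAi-labelled heads at unchanged differences. The fits without 1 over-expression-labelled array nearly repeat that fit, at the same differences. The lone array left of that genotype adds nothing to the estimated spread.

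In the RefSeq annotation (Release 6 plus ISO1 MT), *Hsp26* and *Hsp27* belong to one cluster of 8 protein-coding genes in the order *Hsp67Bc*, *CG4456*, *Hsp22*, *CG4461*, *Hsp26*, *Hsp67Ba*, *Hsp23* and *Hsp27*. *CG4461*, the other gene of the cluster with its own probe set, read 9.14 and 9.68 in control heads at ZT3 and ZT15, 9.05 and 9.28 in over-expression-labelled and 9.19 and 9.21 in RNAi-labelled heads. It therefore lacked the high over-expression-labelled ZT3 value of its neighbours. Its differences from control were -0.25 (adjusted p = 0.297) and -0.21 (0.354), and that between the altered genotypes was -0.04 (0.864), none of which passed.

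**Figure D2:**
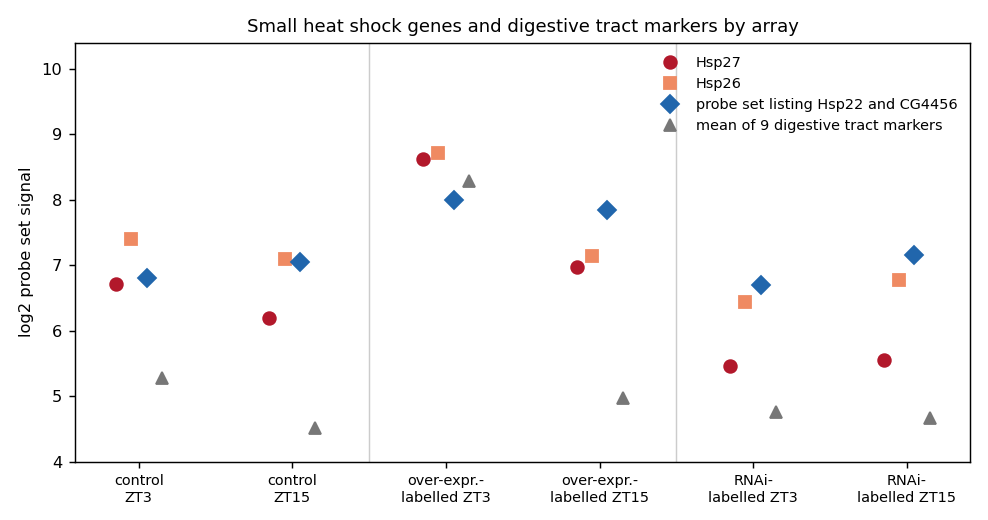
The log2 signals of *Hsp27*, *Hsp26*, the probe set that lists both *Hsp22* and *CG4456*, and the mean of 9 digestive tract markers are shown for each of the 6 arrays, 1 point per array. On the over-expression-labelled ZT3 array the marker mean was 8.29, *Hsp26* 8.71 and *Hsp27* 8.63, and on the ZT15 array of the same genotype the marker mean was 4.97, *Hsp26* 7.14 and *Hsp27* 6.97.

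The Hsp70-class genes had small differences, none of which passed. *Hsp68*, an inducible member of the family, read 6.55 and 6.42 in control heads at ZT3 and ZT15, 6.59 and 6.47 in over-expression-labelled and 6.30 and 6.17 in RNAi-labelled heads. The RNAi-labelled arrays lay below all others, and the other genotypes overlapped. Its RNAi-labelled heads differed from control by -0.25 (95% interval -0.50 to -0.003, limma adjusted p = 0.153) and over-expression-labelled heads from RNAi-labelled heads by 0.30 (0.05 to 0.54, adjusted p = 0.0796), so that neither passed. Over-expression-labelled heads differed from control by 0.04 (-0.21 to 0.29), a sign that turned with other scalings, to -0.06 when centred on ribosomal protein genes and -0.04 when quantile normalized again.

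*Hsc70-4*, the constitutive cytosolic Hsc70 that also uncoats clathrin vesicles at synapses, read 12.69 and 12.46 in control heads, 12.61 and 12.39 in over-expression-labelled and 12.52 and 12.53 in RNAi-labelled heads. All 3 genotypes overlapped. The differences from control were -0.08 (95% interval -0.31 to 0.15) in over-expression-labelled and -0.05 (-0.28 to 0.18) in RNAi-labelled heads. That between the altered genotypes was -0.02 (-0.25 to 0.21).

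*DnaJ-1*, a J-domain protein gene of the Hsp40 class, was highest in RNAi-labelled heads, where *stv* was lowest. It read 9.87 and 9.89 in control heads, 9.89 in over-expression-labelled and 10.05 and 10.18 in RNAi-labelled heads, which lay above all others. RNAi-labelled heads differed from control by 0.24 (95% interval 0.03 to 0.45, adjusted p = 0.125), and over-expression-labelled from RNAi-labelled heads by -0.23 (-0.44 to -0.02, adjusted p = 0.0976). The latter passed with arrays centred on ribosomal protein genes (-0.37, 0.0375). The difference of 0.01 between over-expression-labelled and control heads became -0.10 with that centring.

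*Hsf*, the gene of the transcription factor itself, had the smallest range of the 7 genes, 0.217 log2 units. It read 9.52 and 9.35 in control heads, 9.44 and 9.32 in over-expression-labelled and 9.54 and 9.53 in RNAi-labelled heads. The RNAi-labelled arrays were the highest, with the control ZT3 array next. Its differences were -0.05 (95% interval -0.27 to 0.17) for over-expression-labelled minus control, 0.10 (-0.12 to 0.32) for RNAi-labelled minus control and -0.16 (-0.38 to 0.06) between the altered genotypes. Hsf protein is known to be controlled largely after translation, which arrays do not read.

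**Figure D3:**
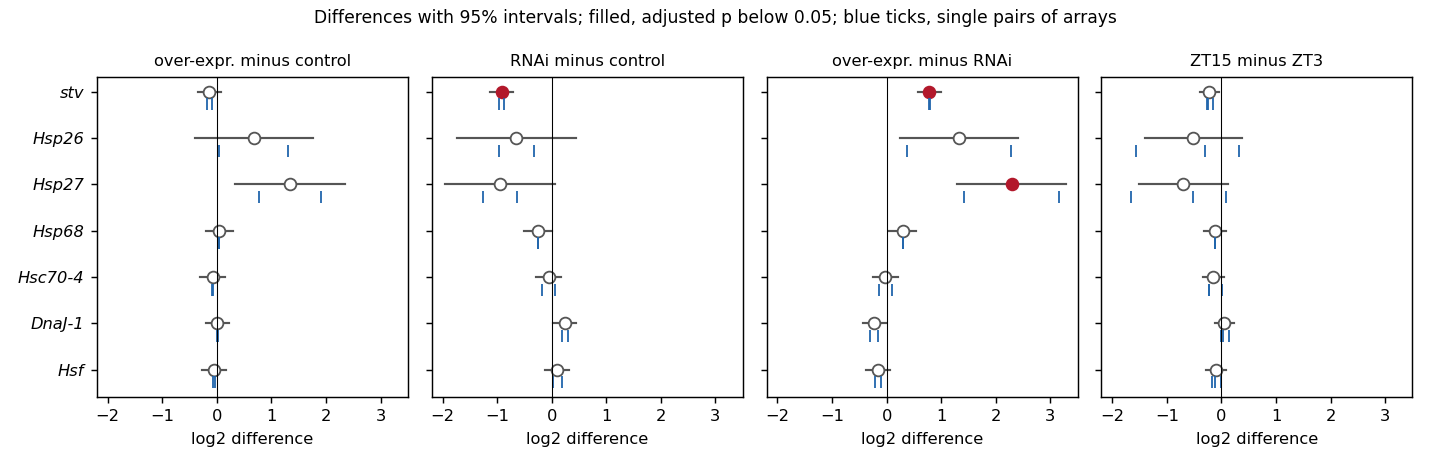
Circles give the log2 difference of each of the 7 genes in the 4 comparisons with its 95% interval from limma, filled where the adjusted p was below 0.05, and blue ticks give the difference in each pair of arrays. *stv* at -0.92 in RNAi minus control, and *stv* at 0.78 and *Hsp27* at 2.29 in over-expression minus RNAi, are the filled points.

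Over the 7 genes, limma called 1 in the RNAi-labelled heads against control, *stv*, where 9.40% of all 8517 genes were called and 6.25% were lower. Between over-expression-labelled and RNAi-labelled heads it called 2 of 7, *stv* and *Hsp27*, both higher, against 27.6% of all genes called and 15.7% higher. Against control the over-expression-labelled heads had 0 of 7 called by limma, with 1 gene, *Hsp27*, at an unadjusted p under 0.05, and 7.06% of all genes were called. The arrays of the genotypes did not overlap for 1, 6 and 6 of the 7 genes in over-expression-labelled minus control, RNAi-labelled minus control and over-expression-labelled minus RNAi-labelled heads, against 54.5%, 58.5% and 66.8% of all genes. A difference of 1.5-fold in 1 direction in both pairs was met by 1, 2 and 2 of the 7 genes in the same order, against 6.58%, 6.39% and 12.5% of all genes. The median log2 difference of the 7 genes was -0.25 for RNAi-labelled minus control, 0.30 for over-expression-labelled minus RNAi-labelled and 0.01 for over-expression-labelled minus control. Over all genes these medians were 0.01, -0.01 and 0.01. The comparisons share arrays, so their counts are not independent of each other. Of the 7 genes 3 had a range of 1 log2 unit or more over the arrays, *stv*, *Hsp26* and *Hsp27*, as had 18.6% of all genes.

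No gene of the 7 passed the test between night and day. ZT15 minus ZT3 had 0 of 7 genes called by limma, with 1, *stv*, at an unadjusted p under 0.05, and 0.693% of all genes were called, 0.364% higher and 0.329% lower. For 0 of 7 genes did the arrays of the times lie apart, against 8.38% of all genes, and 0 of 7 had a 1.5-fold difference in every pair, against 0.939%. *stv* was lower at ZT15 by 0.16, 0.25 and 0.26 log2 units in control, over-expression-labelled and RNAi-labelled heads, a mean of -0.22 ± 0.07 (SE, 3 arrays per time, adjusted p = 0.256). *Hsp68* differed by -0.13, -0.12 and -0.12 in the same order (adjusted p = 0.524) and *Hsf* by -0.17, -0.12 and -0.01 (0.552). These 3 of the 7 genes were lower at ZT15 in every genotype, as were 22.8% of all genes. *Hsc70-4* differed by -0.23, -0.22 and 0.01 (0.417), and *DnaJ-1* by 0.02, 0.00 and 0.14 (0.738).

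The small heat shock genes had the widest day-night differences of the 7 genes, and these ran in different directions between genotypes. *Hsp27* differed by -0.53 in control, -1.65 in over-expression-labelled and 0.09 in RNAi-labelled heads (mean -0.70, 95% interval -1.52 to 0.12, adjusted p = 0.391). *Hsp26* differed by -0.30, -1.57 and 0.33 (mean -0.51, -1.40 to 0.37, adjusted p = 0.532). Without either over-expression-labelled array the means were -0.22 for *Hsp27* and 0.01 for *Hsp26*. With 1 array per genotype and time, the difference between genotypes in their day-night change could not be tested.

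Among genes with a range of at least 1 log2 unit over the 6 arrays, 1582 besides *stv*, the 5 whose signal followed that of *stv* most closely were *CG10560* (Pearson's r = 0.998), *Atg17* (0.992), *UGP* (0.991), *CG6567* (0.985) and *Sting* (0.985). *Atg17* encodes a protein of the autophagy initiation complex, *UGP* an enzyme that makes UDP-glucose, and *Sting* a sensor of cyclic dinucleotides in innate immunity. *Atg17* read 7.65 and 7.15 in control heads, 7.09 and 6.89 in over-expression-labelled and 5.70 and 5.14 in RNAi-labelled heads. These correlations describe 6 arrays that fall into 3 genotypes, and a low signal on both RNAi-labelled arrays raises them. *Hsp26* and *Hsp27*, also lowest on those arrays but highest on the over-expression-labelled ZT3 array, had r = 0.66 and 0.70 with *stv*. How far the low RNAi-labelled signal sets these values was not tested. Among the 7 genes themselves, *stv* had r = 0.951 with *Hsp68* and -0.965 with *DnaJ-1*, and *Hsp26* had 0.967 with *Hsp27*.

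The wider proteostasis network was read through 10 gene lists that together held 126 genes with a value. Between over-expression-labelled and RNAi-labelled heads 16 of these genes were higher and 8 lower by limma, against 15.7% higher and 11.9% lower of all genes. RNAi-labelled minus control gave 3 higher and 3 lower, against 3.16% and 6.25% of all genes, and over-expression-labelled minus control 1 higher and 1 lower, against 4.83% and 2.23%. ZT15 minus ZT3 gave 0 by limma, with 10 at an unadjusted p under 0.05, which is 7.94% of the list genes against 14.9% of all genes. No list was tested as a set.

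The chaperonin and prefoldin list, whose TRiC ring folds actin and tubulin, had 5 higher and 0 lower of 14 genes between over-expression-labelled and RNAi-labelled heads. Of all genes 15.7% were called higher there and 11.9% lower. *CCT7* read 9.36 and 9.05 in over-expression-labelled heads at ZT3 and ZT15 and 7.98 and 8.43 in RNAi-labelled heads, a difference of 0.998 ± 0.207 (SE, 2 arrays per genotype, adjusted p = 0.0247). The control arrays lay between, at 8.92 and 8.63. *CCT1* differed by 0.65 (0.0246), *CCT4* by 0.60 (0.0199) and *CCT3* by 0.55 (0.0128), all of them subunits of the ring. The list's median was 0.39, against -0.01 for all genes. In the same comparison 7 of 9 hemocyte markers were higher (median 0.87), and 4 of 8 neuron markers (median -0.46) and 4 of 6 photoreceptor markers (median -0.52) were lower, whose part in the chaperonin difference was not tested. *CCT3* was also the 1 gene of 14 higher than control in over-expression-labelled heads (0.51, 0.0376), against 4.83% of all genes. In RNAi-labelled heads 0 of 14 were called against control by limma (4 at an unadjusted p under 0.05, against 32.0% of all genes), with a median of -0.16. The J-domain list had 2 of 18 lower, *jdp* at -0.43 (0.0307) and *Csp*, the synaptic vesicle cysteine string protein, at -0.34 (0.0278), while the mean of the neuron markers ran to 8.91 and 9.25 under the over-expression label and 9.69 and 9.42 under the RNAi label, whose part in this was not tested.

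Between over-expression-labelled and RNAi-labelled heads, 15.7% of all genes were called higher and 11.9% lower. The HSP90 list had 2 higher of 13, *nudC* at 0.55 (0.0164) and *pont*, an ATPase of chromatin and chaperone complexes, at 0.50 (0.0274). The proteasome and ubiquitin list had 4 higher and 1 lower of 28, among them *Prosbeta6* at 0.46 (0.0269) and *Rpn7* at 0.38 (0.032), subunits of the core and the regulatory particle, *Prosbeta3* at 0.37 (0.029) and the polyubiquitin gene *Ubi-p63E* at -0.39 (0.0191). The endoplasmic reticulum list had 2 higher and 1 lower of 18, *CaBP1* at 0.75 (0.018) and the oxidase gene *Ero1L* at 0.50 (0.0343), both of disulfide folding, and the ubiquitin ligase gene *sip3* at -0.46 (0.0186). The mitochondrial list had 1 lower of 8, the protease gene *Lon* at -0.58 (0.0194), and neither the other HSP70 list (7 genes) nor the other small heat shock list (3 genes) had any by limma, with 2 and 1 at an unadjusted p under 0.05, against 42.6% of all genes.

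The list of chaperone-assisted autophagy and sarcomere upkeep joins genes of the pathway of starvin's mammalian counterpart with Z-disc and other sarcomere genes. It had 2 higher and 1 lower of 15 between the altered genotypes, against 15.7% and 11.9% of all genes. The filamin gene *cher*, whose mammalian counterpart is a client of that pathway, differed by 0.93 (adjusted p = 0.0209), the Z-disc gene *Zasp52* by 0.74 (0.0106) and the autophagy kinase gene *Atg1* by -0.71 (0.00705). Against control, RNAi-labelled heads had *Zasp52* lower (-0.57, 0.0433) and *Atg1* higher (0.45, 0.0442). That is 1 of 15 in each direction, against 6.25% lower and 3.16% higher of all genes. The mean of the 7 muscle markers was 9.81 and 9.89 in over-expression-labelled, 9.54 and 9.45 in RNAi-labelled and 9.38 and 9.77 in control heads at ZT3 and ZT15. The median difference of these markers was -0.19 for over-expression-labelled minus control, with 3 of 7 above 0. It was -0.10 for RNAi-labelled minus control, with 2 of 7 above 0, and 0.19 between the altered genotypes, with 4 of 7 above 0. Their part in the *stv*, *cher* and *Zasp52* differences was not tested.

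In the list named for regulators of the heat shock response, the transcription factor gene *foxo* was lower than control in both altered genotypes. The differences were -0.85 (0.0408) in over-expression-labelled and -0.94 (0.0313) in RNAi-labelled heads, 2 comparisons that share the control arrays. *Spt5*, an elongation factor gene, was higher in RNAi-labelled heads (0.50, 0.0444). Against control this list had 1 lower of 11 in over-expression-labelled heads, against 2.23% of all genes. In RNAi-labelled heads it had 1 higher and 1 lower, against 3.16% and 6.25%. Between the altered genotypes this list had 1 higher and 2 lower of 11, against 15.7% and 11.9% of all genes. These were *PCNA*, which encodes the replication clamp though placed on this list, at 2.40 (0.0147), *Keap1* at -0.47 (0.0423) and *Sirt1* at -0.32 (0.0489). *PCNA* read 8.10 on the over-expression-labelled ZT3 array and 6.72 on the ZT15 array, against 4.96 and 5.06 on the RNAi-labelled arrays, the same array at the top as for *Hsp26* and *Hsp27*. In RNAi-labelled heads *CG10973*, of the HSP70 exchange factor list, was lower than control (-0.66, 0.0406), 1 of 7 against 6.25% of all genes. There *sip3* was higher (0.51, 0.033), 1 of 18 in its list against 3.16% of all genes. The J-domain, HSP90, mitochondrial, other small heat shock and proteasome lists had 0 called there by limma, with 3, 2, 2, 0 and 8 at an unadjusted p under 0.05, a threshold that 32.0% of all genes met. In over-expression-labelled heads the lists other than chaperonins and regulators had 0 by limma, with 0 to 7 at that threshold, which 29.2% of all genes met.

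The 32 list calls, the 30 named and 2 more, rested on few arrays. Of the 24 between the altered genotypes, 0 passed without the RNAi-labelled ZT3 array, 3 without the over-expression-labelled ZT3 array, 6 without either control array, 10 without the RNAi-labelled ZT15 array and 19 with the ZT15 array of the over-expression label dropped. Of the 6 in RNAi-labelled heads against control, 0 passed without any 1 of the control or RNAi-labelled arrays, and 6 passed without either over-expression-labelled array. Of the 2 in over-expression-labelled heads, 0 passed with a control array or the ZT3 array of the over-expression label dropped.

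**Figure D4:**
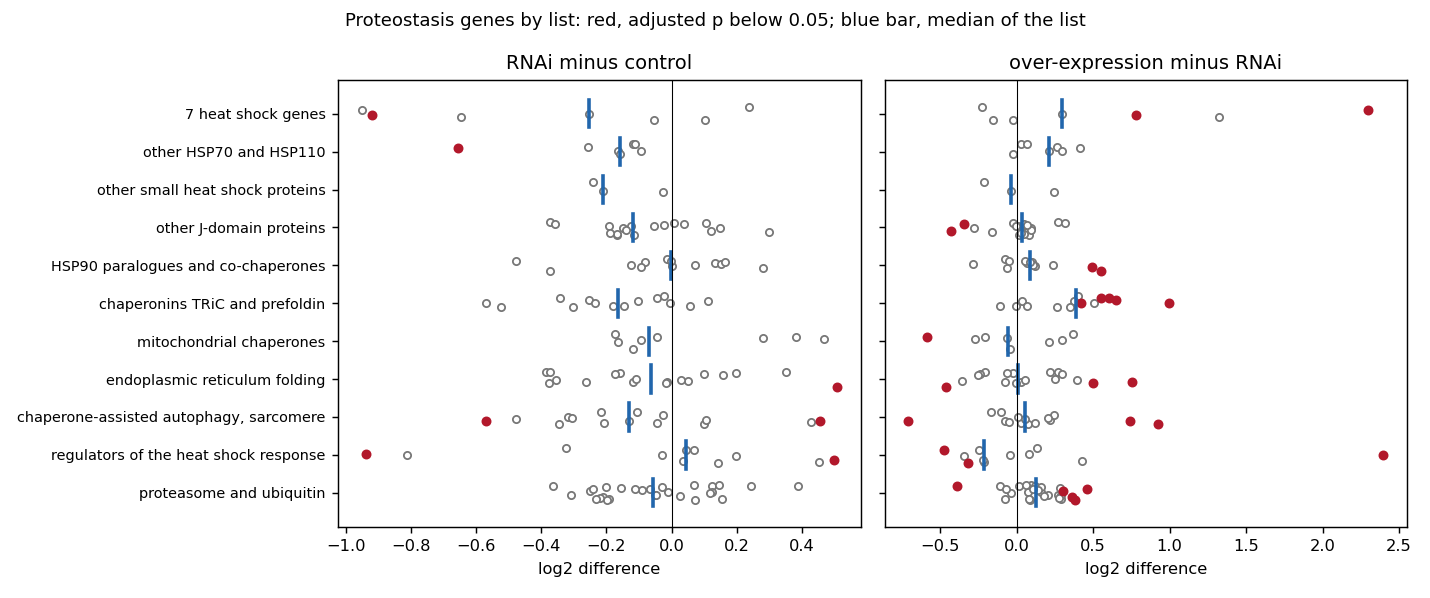
Each point is the log2 difference of 1 gene, in rows by list, for RNAi minus control (left) and over-expression minus RNAi (right), with red points for an adjusted p below 0.05 and a blue bar at the median of each list. The chaperonin list has 5 red points above 0 on the right with its median at 0.39, and the row of the 7 heat shock genes has *stv* at -0.92 on the left and *Hsp27* at 2.29 on the right.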

How the data were processed

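Heads were profiled on Affymetrix Drosophila 2.0 arrays. Signals per probe set came from the authors' deposited table, in log2 units as judged from its values. Per the submitters' processing notes, Affymetrix Expression Console was used, with summarisation and normalization not given in the sources used here. The values were not normalized again. Every probe set reached 4.00 or more on at least 1 array, and no further signal filter was used. A filter at the 40th percentile would have left *Hsp27* and *Hsp68* untested, and one at the 60th percentile *Hsp26* too. Of 10956 probe sets, 9286 listed 1 gene, 276 several and 1394 none. Symbols were updated by gene ID through RefSeq (9260 matched). Where a gene had several probe sets, the brightest on average was taken.

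The fit used limma 3.58.1 (R 4.3.3) on all 6 arrays with genotype and time as additive terms, 2 residual degrees of freedom and an intensity trend. P-values were two-sided and adjusted by Benjamini and Hochberg's method across 8517 genes, and a call is an adjusted p below 0.05. No label says that samples were raised apart, and no genotype had a repeat array at the same time point. The spread behind the SEs and p-values of this fit is how far genotype differences varied between the times, moderated by limma across genes. Variation between arrays and a genotype difference that changes with time cannot be told apart in it. The number of arrays limits the precision. With an array left out, the lone array of its genotype is taken to vary like the others and adds nothing to the estimated spread. The 10 heat shock genes and the 10 lists, with up to 4 called genes named per list and comparison, were chosen with earlier results of these data known. The 5 genes most like *stv* were named by correlation. Figures were drawn with matplotlib 3.10.9. The planned promoter motif search was not run.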

Additional observations from a re-analysis of the deposited data

Results flagged for a closer look

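*Hsp26* moved in opposite directions between day and night in different genotypes. ZT15 minus ZT3 was -0.30 in control and -1.57 in over-expression-labelled heads but 0.33 in RNAi-labelled heads, each from 1 pair of arrays. The difference was not tested. Of the 7 genes it was the one with changes of at least 0.1 log2 units in opposite directions.

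One probe set lists both *Hsp22* and *CG4456*, neighbours in the small heat shock cluster, so its signal belongs to neither by name and it entered none of the comparisons. It read 6.81 and 7.05 in control heads at ZT3 and ZT15, 7.99 and 7.84 in over-expression-labelled and 6.71 and 7.15 in RNAi-labelled heads. Both over-expression-labelled arrays lay above the other 4, by a mean of 0.99 over control. In a limma fit of every probe set, added after the data were seen, that difference had a SE of 0.16 and an adjusted p of 0.0362. In that comparison 660 of 10893 probe sets passed, and no fit with an array left out was made for this probe set. Its signal was high on the over-expression-labelled ZT15 array too, where *Hsp26* differed from control by 0.05.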

How the results depend on the processing

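The number of the 7 genes called was 0 to 3 in every setting run, and 0 for time in each. For over-expression-labelled minus control it was 0 to 2 with 1 array left out and 1 by the rule of 1.5-fold in every pair (6.58% of all genes). For RNAi-labelled minus control it was 0 to 3 with 1 array left out, 3 with only the arrays compared and 2 by the 1.5-fold rule (6.39%). Between the altered genotypes it was 1 to 3 with 1 array left out, 3 centred on ribosomal protein genes and 1 with a filter at the 40th or the 60th percentile, where *Hsp27* lay below the filter. Counts over all genes, 601, 801, 2351 and 59 in the order of over-expression-labelled minus control, RNAi-labelled minus control, over-expression-labelled minus RNAi-labelled and time, ran with 1 array left out from 0 to 1301, 0 to 1598, 585 to 2537 and 0 to 146. Without the intensity trend they were 370, 510 and, for time, 29. Without the time term the first and second were 228 and 379, and without the genotype term the time count was 3. With only the arrays compared they were 1604 for RNAi-labelled minus control and 1307 between the altered genotypes, where the 60th percentile filter gave 1470 and the 1.5-fold rule 1066. Signs turned in *Hsp68* for over-expression-labelled minus control (-0.041 quantile normalized again, -0.061 centred on ribosomal protein genes, which moved arrays by up to 0.16) and in *DnaJ-1* there (-0.10 centred, and -0.032 to 0.049 with 1 array left out). With 1 array left out signs also turned for *Hsp26* (-0.11 to 1.47 against control, -0.94 to 0.012 for time), *Hsc70-4* (-0.17 to 0.065 for RNAi-labelled minus control, -0.14 to 0.096 between the altered genotypes) and *Hsf* (-0.11 to 0.0031 for over-expression-labelled minus control). The causes were not tested. The time term of the fit takes out only a shift between the times that all genotypes share. A change in a dim gene is limited by its signal over background, which the files do not give.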

Other observations

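A further 3 probe sets list several near-identical *Hsp70* copies, the most heat-inducible chaperone genes of the fly, and their signal cannot be split between the copies. The probe set that lists *Hsp70Aa* and *Hsp70Ab* read 7.10 and 6.43 in control heads at ZT3 and ZT15, 7.36 and 6.48 in over-expression-labelled and 5.95 and 6.28 in RNAi-labelled heads. Its differences from control were 0.16 (limma adjusted p = 0.769, in the fit of every probe set) and -0.65 (0.211), and that between over-expression-labelled and RNAi-labelled heads was 0.81 (95% interval 0.05 to 1.56, 0.104), none of which passed. The probe set that lists 4 *Hsp70B* copies was lower at ZT15 than at ZT3 in all 3 genotypes, with 5.68 against 6.40 in control, 5.83 against 6.24 in over-expression-labelled and 5.90 against 6.05 in RNAi-labelled heads, a difference of -0.42 ± 0.13 (SE) that did not pass (adjusted p = 0.284). The probe set that lists *Hsp70Bb* and *Hsp70Bc* was dim, at 5.10 and 4.31 in control heads at ZT3 and ZT15, 4.74 and 4.55 in over-expression-labelled and 4.29 and 4.55 in RNAi-labelled heads. Its differences from control were -0.06 (0.897) and -0.29 (0.499), that between the altered genotypes 0.23 (0.55) and that between the times -0.24 (0.637), none of which passed.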
